A study of Mus musculus with 6 samples.

Results

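The genes described here write, read and organise methylation of histone H3 lysine 9 (H3K9), and they were chosen by name. They are the 6 methyltransferase genes Suv39h1, Suv39h2, Setdb1, Setdb2, Ehmt1 and Ehmt2, the 3 heterochromatin protein 1 (HP1) genes Cbx1, Cbx3 and Cbx5, and the corepressor gene Trim28. All 10 were found among the 53023 genes of the deposited table, and all 10 passed the filter for testing. The libraries came from ICR mouse embryos at the two-cell stage, 28 h post insemination (hpi), with 5 embryos pooled in each library and 2 libraries in each of 3 groups. Embryos of the PIASy-WT group had received 100 ng/µl of mRNA for PIASy-WT-HA, an HA-tagged form of the SUMO E3 ligase that Pias4 encodes, which in the study's injections was also fused to the fluorescent protein mCherry. Embryos of the PIASy-Mut group had received mRNA for PIASy-C335F mutation-HA at the same concentration, the SUMO ligase mutant. Injection into the cytoplasm took place between 1.5 and 3 hpi, and injected zygotes with a fluorescence signal at 9 hpi were kept. Embryos of the non-injection group received no mRNA and no injection, so injection itself and expression of a tagged protein cannot be told apart from each other in comparisons with this group.

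Trimethylated H3K9 marks constitutive heterochromatin and silenced repeats. The SUV39H1 and SUV39H2 enzymes trimethylate H3K9 mainly at pericentromeric repeats. SETDB1 does so at retrotransposons, where KRAB zinc finger proteins and TRIM28 recruit it, and EHMT1 and EHMT2 form a complex that chiefly adds mono- and dimethylation. HP1 proteins bind the mark through their chromodomain, and the SUMO system is known to act on several of these proteins. In the mouse zygote the maternal chromatin carries more H3K9 methylation than the paternal chromatin, and heterochromatin is rebuilt during the cleavage divisions. The study asked whether excess PIASy disturbs this state, and RNA-seq shows only the mRNA side of that question.

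Expression is given as FPKM, the number of fragments per kilobase of gene length scaled to the fragments on genes in the library, so that levels of different genes can be set side by side. The depth was from 871663 to 1363928 fragments per library, and the limit of detection, 3 fragments and for counting error only, was 2.20 to 3.44 CPM (the same scaling without gene length). Pias4 reached FPKM values of 2.98 and 3.59 without injection and of 579 to 862 in the 4 injected libraries. Stored oocyte transcripts such as Dppa3, Oosp1 and Zp3 and two-cell transcripts such as Zscan4d and Zfp352 were present in every library. The 5 oocyte markers summed to 6855 to 7933 CPM in the 4 libraries outside PIASy-WT and to 6577 and 4618 CPM in PIASy-WT. Of these 5, Zp3, a zona pellucida gene, was called lower (log2 fold change -1.57 and -1.67 relative to non-injection and PIASy-Mut, adjusted P=0.0292 and 0.0240 by limma), and the other 4 were not called, with values from -0.88 for Dppa3 to 0.65 for Nlrp5 relative to non-injection. The 8 markers of cumulus and granulosa cells summed to 3.67 to 16.1 CPM, with Amh, Foxl2 and Inhba at 0 in all 6 libraries, and the 4 sperm markers summed to 0.969 to 4.399 CPM, with Tnp2 at 0 in all 6. The cumulus and granulosa sum was 3.67 and 7.96 CPM in non-injection, 6.78 and 16.1 under PIASy-Mut and 15.8 and 11.3 under PIASy-WT. The 5 two-cell markers summed to 1917 and 1730 CPM in non-injection, 1979 and 1986 under PIASy-Mut and 997 and 692 under PIASy-WT, so their sum was lowest in PIASy-WT. Of these, Obox3 was called lower (-3.80 and -3.92, adjusted P=0.0224 and 0.0219 by limma), and Tcstv3 relative to PIASy-Mut (-1.39, adjusted P=0.0499 by limma). Zscan4d, Zfp352 and Usp17lc were not called in either comparison, and Zscan4d was at -0.22 and -0.13 (adjusted P=0.821 and 0.906 by limma). The part of these lists in the results that follow was not tested. In pooled embryos, fewer cells holding a transcript and less of that transcript per cell cannot be told apart, and CPM values are shares of each library.

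The library PIASy-Mut 2 stood apart from PIASy-Mut 1. It was the shallowest library, and on log2(FPKM + 1) it lay nearer to the PIASy-WT mean than PIASy-Mut 1 did for 10 of the 10 genes, against 67.3% of all 16100 genes tested. Leaving it out for this reason widens the differences between PIASy-WT and PIASy-Mut by construction, so values without it are a description, and they are given together with those without PIASy-Mut 1. Groups were compared with limma on log2(FPKM + 1) over all 16100 genes that reached an FPKM of 1 in 2 or more libraries, and a call needed a Benjamini–Hochberg adjusted P no larger than 0.05. For 2 libraries against 2, the smallest two-sided P of an exact permutation test is 0.333, and none was used for single genes.

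In non-injected embryos Setdb2 had the highest mRNA level of the 10 genes, with a mean FPKM of 62.8 ± 9.77 (SD, n = 2, as for all means below). Suv39h2 followed at 25.4 ± 1.28, and then came Cbx5 at 13.7 ± 0.869 and Cbx1 at 13.0 ± 0.922, whose libraries overlapped. Trim28 at 9.05 ± 0.168 and Suv39h1 at 8.72 ± 0.462 overlapped as well. Setdb1 was at 5.84 ± 1.88, Ehmt1 at 2.76 ± 0.0541, Cbx3 at 2.36 ± 0.217 and Ehmt2 at 1.42 ± 0.639. In PIASy-WT the order was different: Suv39h2 was first at 52.4 ± 4.62, followed by Cbx1 at 37.7 ± 8.11 and Setdb2 at 35.3 ± 0.969, which overlapped, and Cbx3 at 0.407 ± 0.0409 and Ehmt2 at 0.602 ± 0.269 came last and overlapped. In PIASy-Mut, Setdb2 was first at 46.0 ± 16.9 and Suv39h2 next at 29.6 ± 14.5, and each of the 6 highest genes overlapped with the gene next to it in the order, while Suv39h1, the lowest of them, lay above Setdb1.

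**Figure D1:**
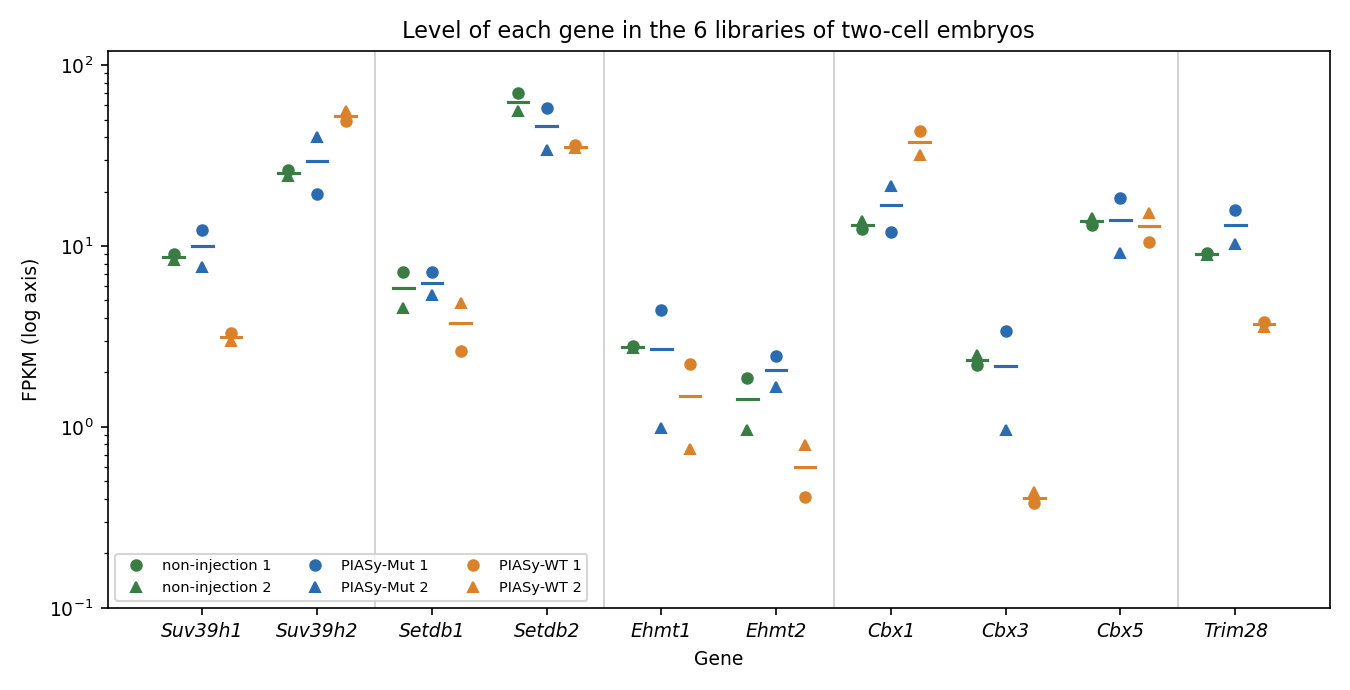
FPKM on a log axis for the 10 genes in each library. Circles are replicate 1, triangles replicate 2 and bars the group mean of 2 libraries. Both PIASy-WT libraries lie below the other 4 for Suv39h1, Ehmt2, Cbx3 and Trim28 and above them for Suv39h2 and Cbx1.

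The SUV39 genes stood on opposite sides. Suv39h1 (ENSMUSG00000039231.18, chromosome X of mm10, from 8061171 to 8074760, minus strand) encodes the enzyme that the study stained in embryos. The study reported more of this protein in pronuclei and in two-cell nuclei under PIASy-WT, at times before these libraries were collected. The values here are mRNA. The FPKM of Suv39h1 was 9.04 and 8.39 for non-injection, 12.3 and 7.62 for PIASy-Mut and 3.29 and 2.97 for PIASy-WT, from 18 to 67 fragments per library. Both PIASy-WT libraries were the lowest of the 6. The log2 fold change of PIASy-WT was -1.23 against non-injection (standard error, SE, of 0.35, adjusted P=0.0852 by limma) and -1.38 relative to PIASy-Mut (SE 0.35, adjusted P=0.0683 by limma), so neither difference was called. The latter value was -1.06 without PIASy-Mut 1 and -1.69 without PIASy-Mut 2 (adjusted P=0.182 and 0.0291 by limma), and it was called in 3 of 17 alternatives.

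Suv39h2 (ENSMUSG00000026646.16, chromosome 2, from 3455815 to 3475031, minus strand), the paralogue with high expression in oocytes and germ cells, reached FPKM values of 26.3 and 24.5 without injection, 19.3 and 39.8 with PIASy-Mut, and 49.1 and 55.6 with PIASy-WT, from 88 to 287 fragments. Both PIASy-WT libraries were the highest of the 6, and PIASy-Mut 2 was next. By limma, the difference on the log2 scale was 1.02 from non-injection (SE 0.37, adjusted P=0.141) and 0.89 from PIASy-Mut (adjusted P=0.187). The latter value was 0.38 without PIASy-Mut 1 and 1.39 without PIASy-Mut 2 (adjusted P=0.403 and 0.0225 by limma), and it was called in 1 of 17 alternatives. Suv39h2 made up 74.4% and 74.5% of the summed SUV39 FPKM in non-injection, 61.1% and 83.9% under PIASy-Mut and 93.7% and 94.9% under PIASy-WT. The summed FPKM of both SUV39 genes was 35.3 and 32.9 for non-injection, 31.6 and 47.4 for PIASy-Mut and 52.4 and 58.6 for PIASy-WT.

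The promoters of the SUV39 genes are shown because these paralogues had opposite values in the same libraries. The 250 bases before the start site were taken from the RefSeq promoter table (GRCm38.p6), which holds all 10 genes, and are written 5′ to 3′ on the strand of the gene. For Suv39h1, Ehmt2, Cbx3 and Cbx5 it lists 2 start sites, of which the 1 nearest to the gene's 5′ end in the deposited table was used. Capitals mark matches, on either strand, to the motifs searched, which were the GC box with letters GGGCGG, the binding site of NF-Y with letters CCAAT, the core promoter element with letters TATAAA, the motif of NRF1, that of ETS factors with letters CCGGAAG, the core site of YY1 with letters ATGGCGGC, the cyclic AMP response element with letters TGACGTCA, the E-box with letters CACGTG, the site of OBOX proteins with letters GGATTA and the motif of DUX.
Suv39h1 (chrX:8074761-8075010, minus strand): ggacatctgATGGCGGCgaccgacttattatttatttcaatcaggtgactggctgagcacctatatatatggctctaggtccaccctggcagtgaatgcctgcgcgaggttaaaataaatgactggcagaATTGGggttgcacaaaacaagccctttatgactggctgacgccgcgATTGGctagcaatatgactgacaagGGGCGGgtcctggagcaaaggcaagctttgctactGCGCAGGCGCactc
Suv39h2 (chr2:3474987-3475236, minus strand): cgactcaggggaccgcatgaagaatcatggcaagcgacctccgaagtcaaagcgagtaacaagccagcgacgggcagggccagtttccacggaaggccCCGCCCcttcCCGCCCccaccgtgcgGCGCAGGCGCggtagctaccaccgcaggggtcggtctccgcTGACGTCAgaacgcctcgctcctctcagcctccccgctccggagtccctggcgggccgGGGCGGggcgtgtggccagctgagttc
The Suv39h1 window had 51.6% GC and 11 CpG dinucleotides, with 2 CCAAT matches, 1 GC box, 1 NRF1 match and 1 YY1 match. The Suv39h2 window had 69.6% GC and 27 CpG dinucleotides, with 3 GC boxes, 1 NRF1 match and 1 cyclic AMP response element. Over all 32851 promoter windows of this length the median was 52.4% GC and 6 CpG dinucleotides. A match describes letters only and was not tested for binding.

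Other genes overlap both SUV39 genes. The antisense RNA Gm14820 (plus strand, from 8042943 to 8074619) shares 767 exon bases, or 14.6% of the length of Suv39h1. The study's library preparation (SMART-Seq cDNA and Nextera XT) is described without a step that keeps the strand, and the strand setting of counting is not given. Gm14820 had 68 and 82 fragments without injection, 36 and 70 under PIASy-Mut and 129 and 132 under PIASy-WT, so its highest libraries were the lowest of Suv39h1. Its log2 fold change was 0.79 relative to non-injection and 0.97 relative to PIASy-Mut (limma, adjusted P=0.284 and 0.211). Suv39h1 held 48.9% and 37.9% of the fragments assigned to both genes in non-injection, 65.0% and 33.3% under PIASy-Mut and 15.1% and 12% under PIASy-WT. The sum of both genes was 97.5 and 117 CPM in non-injection, 99.8 and 120 under PIASy-Mut and 115 and 130.5 under PIASy-WT, which overlapped between the groups. Without strand, reads of Suv39h1 and Gm14820 cannot be told apart in the shared bases. Suv39h2 shares 357 exon bases with Dclre1c, a DNA repair nuclease gene on the opposite strand, which had 5 or 6 fragments per library of the other groups and 24 in each PIASy-WT library. Its log2 fold change was 1.07 relative to non-injection (adjusted P=0.131 by limma). Reads of Suv39h2 and Dclre1c likewise cannot be told apart in their shared bases without strand.

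Both SETDB genes had negative log2 fold changes against non-injection and against PIASy-Mut, except that of Setdb2 against PIASy-Mut under quantile normalization and without PIASy-Mut 1, and their levels were far apart. Setdb1 (ENSMUSG00000015697.14, chromosome 3, from 95323525 to 95357202, minus strand) reached FPKM values of 7.17 and 4.52 without injection, 7.21 and 5.36 with PIASy-Mut, and 2.64 and 4.82 with PIASy-WT. PIASy-WT 2 lay within the range of non-injection. Relative to non-injection limma gave a log2 fold change of -0.54 (95% confidence interval -1.56 to 0.47, adjusted P=0.434), and relative to PIASy-Mut one of -0.65 (adjusted P=0.367). Leaving out each library moved the former between -0.88, without PIASy-WT 2, and -0.20, without PIASy-WT 1, and it was -0.26 without non-injection 1 and -0.83 without non-injection 2. Setdb2 (ENSMUSG00000071350.12, chromosome 14, from 59402009 to 59440884, minus strand), a related SET domain gene, reached FPKM values of 69.7 and 55.9 for non-injection, 57.9 and 34.0 for PIASy-Mut and 36.0 and 34.6 for PIASy-WT. Both PIASy-WT libraries lay below non-injection, and PIASy-Mut 2 was lower still. PIASy-WT minus non-injection was -0.81 on the log2 scale of limma (SE 0.32, adjusted P=0.168), and PIASy-WT minus PIASy-Mut was -0.32 (adjusted P=0.546). Under quantile normalization the latter value was 0.04 (adjusted P=0.948 by limma), and without PIASy-Mut 1 it was 0.051. Setdb1 shares 75 exon bases with Cers2, a ceramide synthase gene with 13 to 35 fragments per library, and 249 with Gm37500, which had at most 4 fragments. Setdb2 held 86.4% to 93.2% of the summed SETDB FPKM in the 6 libraries, and the range of PIASy-WT overlapped both other groups.

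The EHMT genes were at the low end of expression, and few fragments stood behind their values. Ehmt1 (ENSMUSG00000036893.17, chromosome 2, from 24789928 to 24919614, minus strand), which encodes GLP, had 31 and 25 fragments without injection, 37 and 7 under PIASy-Mut and 24 and 7 under PIASy-WT. The second libraries of both injected groups were the lowest, and the groups overlapped. Ehmt2 (ENSMUSG00000013787.15, chromosome 17, from 34898469 to 34914052, plus strand), also known as G9a, had 14 and 6 fragments without injection, 14 and 8 under PIASy-Mut and 3 and 5 under PIASy-WT. Its FPKM was 1.87 and 0.967, 2.47 and 1.67, and 0.412 and 0.792 in the same order, and both PIASy-WT libraries were the lowest. The log2 fold change of Ehmt2 was -0.58 relative to non-injection and -0.94 relative to PIASy-Mut (limma, adjusted P=0.419 and 0.218), and that of Ehmt1 was -0.66 (adjusted P=0.510 by limma) and -0.47 (adjusted P=0.651 by limma). Leaving out each library moved the values of Ehmt1 between -1.10 and -0.22 relative to non-injection and between -1.19 and 0.26 relative to PIASy-Mut. A pseudocount of 1 on FPKM understates changes at these levels. From summed fragments, Ehmt2 was 2.48 times lower under PIASy-WT than without injection, with a 95% interval of 1.05 to 6.51 from an exact binomial calculation that covers counting error only, and 3.57 times lower than under PIASy-Mut, with an interval of 1.53 to 9.29. Without non-injection 1 the log2 fold change of Ehmt2 relative to non-injection was -0.31, and without non-injection 2 it was -0.85 (adjusted P=0.772 and 0.441 by limma).

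Among the HP1 readers, Cbx1 was highest in PIASy-WT, Cbx3 lowest, and Cbx5 did not separate the groups. Cbx1 (ENSMUSG00000018666.13, chromosome 11, from 96789127 to 96808640, plus strand) encodes HP1 beta. Its FPKM was 12.4 and 13.7 without injection, 12.02 and 21.5 with PIASy-Mut, and 43.4 and 32.0 with PIASy-WT, from 53 to 246 fragments. Both PIASy-WT libraries were the highest of the 6. By limma, the difference on the log2 scale was 1.45 from non-injection (SE 0.36, adjusted P=0.0640) and 1.16 from PIASy-Mut (SE 0.36, adjusted P=0.1004). The latter value was 0.77 without PIASy-Mut 1 and 1.56 without PIASy-Mut 2 (adjusted P=0.239 and 0.0304 by limma), and it was called in 2 of 17 alternatives.

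Cbx3 (ENSMUSG00000029836.15, chromosome 6, from 51470360 to 51483704, plus strand) encodes HP1 gamma, which is also found on transcribed genes. It had 18 and 17 fragments without injection, 21 and 5 under PIASy-Mut and 3 in each PIASy-WT library, so PIASy-WT was at the limit of detection. The FPKM was 2.20 and 2.51, 3.40 and 0.957, and 0.378 and 0.436 in that order. Relative to non-injection limma gave a log2 fold change of -1.25 (SE 0.50, adjusted P=0.168), and relative to PIASy-Mut one of -1.06 (adjusted P=0.231). From summed fragments Cbx3 was 5.79 times lower than in non-injection, with an exact binomial 95% interval of 2.41 to 16.8, and 5.63 times lower than in PIASy-Mut, with an interval of 2.27 to 16.7. These intervals hold no spread between libraries, and the value relative to PIASy-Mut rests largely on PIASy-Mut 1: the log2 fold change of limma was -0.48 without it and -1.64 without PIASy-Mut 2 (adjusted P=0.593 and 0.0574). Of the 50-base sequences of Cbx3 transcripts, 8.67% also occur in 16 other genes, many of them its processed pseudogenes, while counting kept reads with a single place in the genome. The gene with the most matches, the long noncoding RNA Gm49164, had 3 and 4 fragments without injection, 8 and 0 under PIASy-Mut and 7 and 6 under PIASy-WT. The share of such sequences was 10.2% for Setdb1 (with 33 other genes). It was 12.2% for Suv39h1, nearly all with Gm14820, and 4.89% for Suv39h2, with Dclre1c and Gm13184, which overlap these genes at the same place.

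Cbx5 (ENSMUSG00000009575.14, chromosome 15, from 103191544 to 103239816, minus strand) encodes HP1 alpha. Its FPKM was 13.1 and 14.3 for non-injection, 18.5 and 9.17 for PIASy-Mut and 10.6 and 15.2 for PIASy-WT. The PIASy-WT libraries lay on either side of non-injection. The log2 fold change was -0.11 relative to non-injection, with a 95% confidence interval of -1.08 to 0.87, and -0.04 against PIASy-Mut, with an interval of -1.02 to 0.93, so changes within these bounds cannot be told from none (adjusted P=0.888 and 0.960 by limma). Under quantile normalization these values were 0.16 and 0.29, and with median-of-ratios size factors the latter was 0.06.

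The promoters of Cbx1 and Cbx3 are shown, in the same form as above, because these readers stood at opposite ends in PIASy-WT.
Cbx1 (chr11:96788885-96789134, plus strand): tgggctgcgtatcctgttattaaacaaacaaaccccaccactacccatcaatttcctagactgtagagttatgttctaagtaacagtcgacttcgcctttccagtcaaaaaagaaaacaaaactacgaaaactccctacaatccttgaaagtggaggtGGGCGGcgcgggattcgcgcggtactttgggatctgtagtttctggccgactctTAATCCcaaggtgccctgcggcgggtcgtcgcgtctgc
Cbx3 (chr6:51470366-51470615, plus strand): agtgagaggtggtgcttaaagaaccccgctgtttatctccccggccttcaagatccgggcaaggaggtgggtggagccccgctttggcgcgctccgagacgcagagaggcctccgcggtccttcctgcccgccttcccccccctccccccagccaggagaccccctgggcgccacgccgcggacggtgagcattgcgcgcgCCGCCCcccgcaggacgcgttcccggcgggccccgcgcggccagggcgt
The Cbx1 window had 49.6% GC and 16 CpG dinucleotides, with 1 GC box and 1 OBOX match, a motif present in 6.25% of all windows. The Cbx3 window had 73.2% GC, the highest of the 10, and 29 CpG dinucleotides, with 1 GC box, and it lies inside the gene bounds of the deposited table. Over the 10 genes a GC box was present in 9, against 32.7% of all windows, and the NRF1 motif in 4, against 3.74%. TATAAA and the DUX motif were found in 0 of the 10 windows, against 12.4% and 0.00913% of all windows. CCAAT was found in 4 windows, the E-box in 2 and the ETS, YY1, cyclic AMP and OBOX motifs in 1 each, against 33.8%, 6.02%, 6.91%, 1.03%, 1.55% and 6.25% of all windows. Every one of the 10 windows had from 11 to 29 CpG dinucleotides. Suv39h1, Suv39h2, Ehmt1 and Cbx5 were the genes with the NRF1 motif.

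The processed pseudogene Gm11517 lies within Cbx1 on the opposite strand and shares 0 exon bases with it. It had 313 to 1005 fragments in the libraries outside PIASy-WT and 23 and 12 in PIASy-WT, and its log2 fold change was -5.50 relative to non-injection (adjusted P=0.0224 by limma). Cbx1 held 5.01% to 20.4% of the fragments of both genes outside PIASy-WT and 91.4% and 92.9% in PIASy-WT. None of the 50-base sequences of Cbx1 transcripts occur in another annotated gene, so fragments of Gm11517 do not share 50-base sequence with it.

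**Figure D2:**
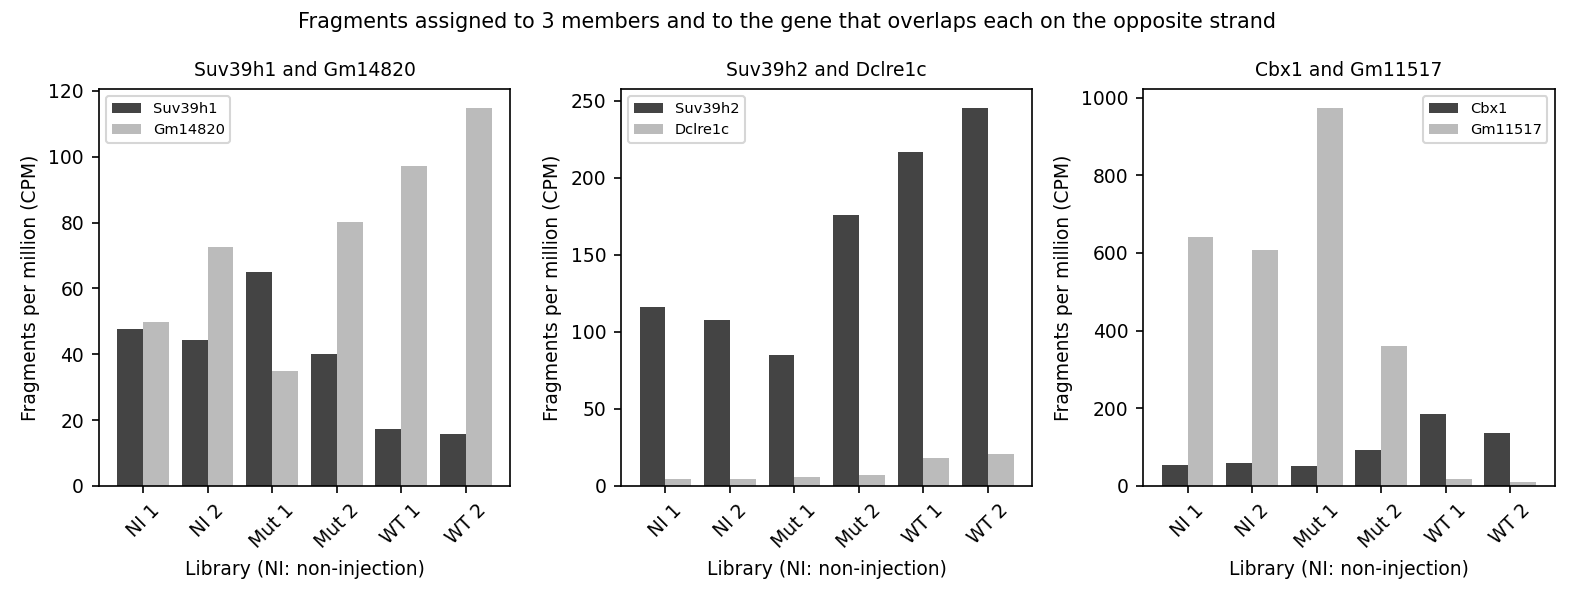
CPM assigned to Suv39h1, Suv39h2 and Cbx1 (dark bars) and to the gene that overlaps each on the opposite strand (light bars), in the 6 libraries. Gm14820 is highest where Suv39h1 is lowest, and Gm11517 has 23 and 12 fragments in the PIASy-WT libraries, where Cbx1 is highest.

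Trim28 was the only one of the 10 genes that was called, in PIASy-WT against PIASy-Mut, where 6.01% of all genes tested were called lower. Trim28 (ENSMUSG00000005566.14, chromosome 7, from 12999114 to 13031035, plus strand) encodes the corepressor that joins KRAB zinc finger proteins to SETDB1 and HP1, and that also has SUMO ligase activity towards its own bromodomain. Its FPKM was 9.17 and 8.93 without injection, 15.8 and 10.2 with PIASy-Mut, and 3.81 and 3.56 with PIASy-WT, from 17 to 68 fragments. Both PIASy-WT libraries were the lowest and the PIASy-Mut libraries the highest. Trim28 was lower in PIASy-WT than in PIASy-Mut, with a log2 fold change of -1.55 (SE 0.33, adjusted P=0.0491 by limma), a 2.93-fold difference on the scale of FPKM + 1. Against non-injection the log2 fold change was -1.10 (SE 0.33, adjusted P=0.0975 by limma). The call against PIASy-Mut stood just under the threshold and was lost in 13 of 17 alternatives, among them leaving out any of the 5 libraries other than PIASy-Mut 2 (adjusted P=0.103 to 0.222 by limma). It was -1.26 without PIASy-Mut 1 and -1.85 without PIASy-Mut 2 (adjusted P=0.134 and 0.0224 by limma). No 50-base sequence of Trim28 was shared with another gene, and it shared 0 exon bases with Zbtb45, a zinc finger gene inside its bounds on the opposite strand. Zbtb45 had 9 and 7 fragments without injection, 1 and 8 under PIASy-Mut and 16 and 22 under PIASy-WT, so it was highest where Trim28 was lowest. Its log2 fold change was 0.88 relative to non-injection and 1.23 relative to PIASy-Mut (limma, adjusted P=0.348 and 0.215). Trim28 held 82.2% to 98.6% of the fragments of both genes outside PIASy-WT and 56.8% and 43.6% in PIASy-WT. The promoter of Trim28 is shown because it is the called gene.
Trim28 (chr7:13023902-13024151, plus strand): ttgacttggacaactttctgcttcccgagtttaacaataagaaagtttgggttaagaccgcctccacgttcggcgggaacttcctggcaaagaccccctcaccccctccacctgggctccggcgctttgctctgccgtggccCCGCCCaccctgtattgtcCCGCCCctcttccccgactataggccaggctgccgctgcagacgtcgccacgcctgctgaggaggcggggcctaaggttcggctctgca
The window lies inside the gene bounds of the deposited table, which begin at 12999114. This window had 62% GC, 17 CpG dinucleotides and 2 GC boxes, and none of the other motifs.

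In PIASy-WT against non-injection, 0 of the 10 genes were called lower and 0 higher by limma, against 5.76% and 1.03% of all genes tested. An unadjusted P under 0.05 was found for 6 genes, which were Suv39h1, Setdb2, Cbx3 and Trim28 with negative values and Suv39h2 and Cbx1 with positive values. Over all genes tested this share was 28.2%. The median log2 fold change was -0.62 for the 6 enzymes and -0.11 for the 3 HP1 genes, against 0.01 over all genes tested. Without PIASy-Mut 2, the spread was estimated from 5 libraries and 4 genes passed, Suv39h1 and Trim28 lower and Suv39h2 and Cbx1 higher, where 12.3% of all genes were called lower and 5.51% higher. Leaving out PIASy-Mut 1 instead gave 2 lower and 2 higher, where 12.2% and 5.84% of all genes were called, and voom on recovered fragments gave 2 lower and 2 higher, where 19% and 8.51% of all genes were called. With only the groups compared in the fit, 3 of 9 genes tested were called lower and 2 higher, where 13.8% and 7.25% of all genes were called. Among genes with an FPKM of 5 or more in 2 libraries, Cbx1 alone of 7 genes tested was called (higher), where 17.4% were called lower and 4.01% higher.

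In PIASy-WT against PIASy-Mut, in which both groups were injected, 1 of the 10 genes was called lower and 0 higher by limma, against 6.01% and 0.82% of all genes tested. Suv39h1, Cbx1 and Trim28 had an unadjusted P under 0.05, as did 27.7% of all genes. The median log2 fold change was -0.56 for the enzymes and -0.04 for the HP1 genes, against -0.03 over all genes tested. Without PIASy-Mut 2, 2 genes were called lower and 2 higher, where 13.2% and 6.63% of all genes were called, and without PIASy-Mut 1, 0 were called. Voom on recovered fragments called 2 lower and 1 higher, where 18.8% and 5.94% of all genes were called. With a pseudocount of 0.1 the count was 1, where 5.22% and 0.584% of all genes were called lower and higher, and with an FPKM of 5 or more in 2 libraries it was 2 of 7, where 17.9% and 2.5% were called. The comparisons share the PIASy-WT libraries and are therefore linked. Counted without a test, both PIASy-WT libraries lay below all 4 others for 4 of the 10 genes, against 24.4% of all genes tested, and above all 4 others for 2 of the 10, against 19.9%.

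In PIASy-Mut against non-injection, 0 of the 10 genes were called in either direction by limma or by voom, against 0% lower and 0.00621% higher over all genes tested, and 0 had an unadjusted P under 0.05, against 4.46% of all genes. The log2 fold changes were from -0.48 for Setdb2 to 0.45 for Trim28. The 95% confidence interval was -0.36 to 1.26 for Trim28, -0.71 to 0.99 for Suv39h1 and -1.67 to 1.27 for Ehmt1, the widest of the 10.

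**Figure D3:**
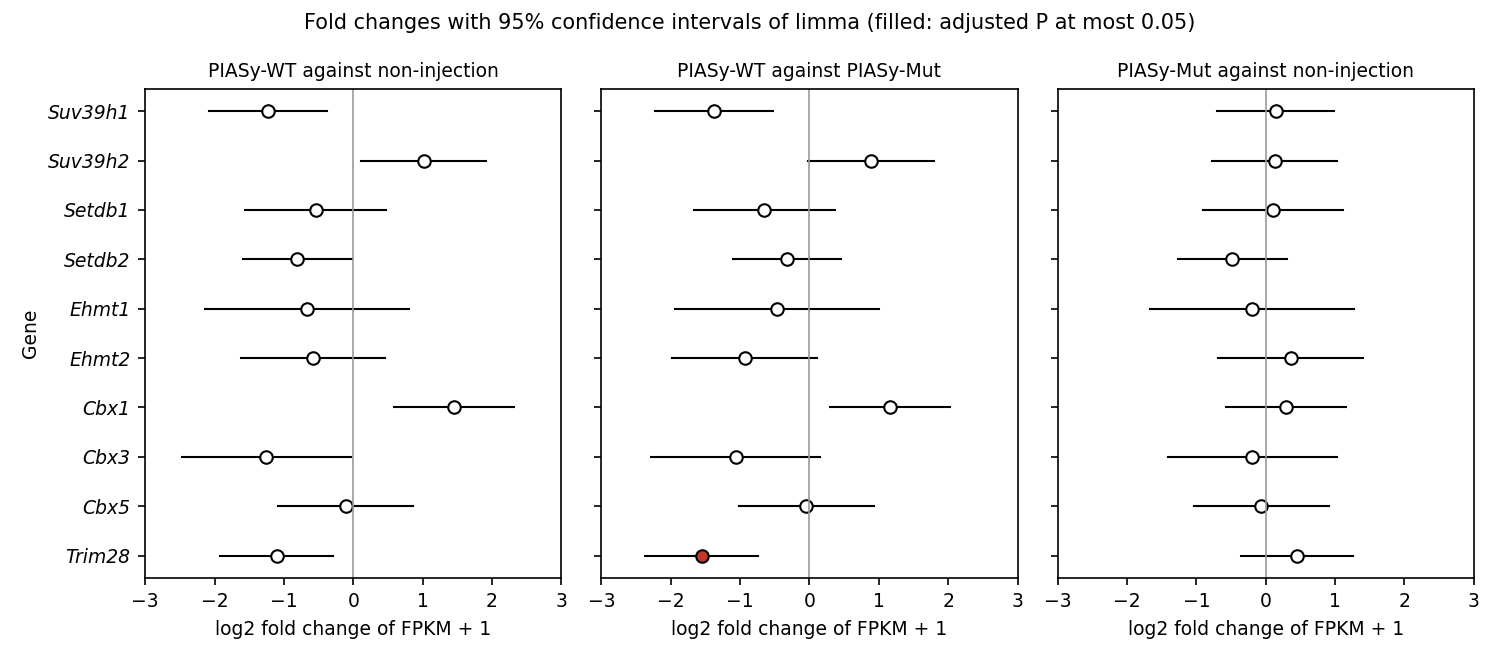
Log2 fold change of FPKM + 1 for the 10 genes in each comparison, with 95% confidence intervals of limma. Filled points pass an adjusted P of 0.05, which holds for Trim28 in PIASy-WT against PIASy-Mut.

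Enzymes and readers were compared within each library by the mean log2(FPKM + 1) of the 3 HP1 genes minus that of the 6 enzymes. This difference was -0.37 and 0.03 without injection, -0.16 and -0.18 under PIASy-Mut and 0.32 and 0.33 under PIASy-WT. Both PIASy-WT libraries were the highest. The mean of the HP1 genes was close in the 3 groups (3.14 ± 0.09, 3.15 ± 0.31 and 3.17 ± 0.03), but in PIASy-WT higher Cbx1 and lower Cbx3 values offset each other in it. The mean of the enzymes was 3.32 ± 0.19 without injection, 3.32 ± 0.30 under PIASy-Mut and 2.85 ± 0.02 under PIASy-WT. The linear sums, in which single genes weigh more, differed between the groups on the HP1 side. The summed HP1 FPKM was 27.7 and 30.5 for non-injection, 33.9 and 31.6 for PIASy-Mut and 54.4 and 47.6 for PIASy-WT. The summed enzyme FPKM was 117 and 97.0, 104 and 89.5, and 93.7 and 99.6 in that order and overlapped between the groups. The ratio of HP1 to enzyme FPKM was 0.237 and 0.314 without injection, 0.327 and 0.353 with PIASy-Mut, and 0.580 and 0.478 with PIASy-WT. These scores over chosen genes were given no test.

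The composition of both classes differed between libraries. Cbx1 made up 44.7% and 44.8% of the HP1 FPKM in non-injection, 35.4% and 68.0% under PIASy-Mut and 79.9% and 67.2% under PIASy-WT, and Cbx3 8.0% and 8.2%, 10% and 3.0%, and 0.69% and 0.92%. PIASy-Mut 2 lay with the PIASy-WT libraries for Cbx1 and between them and the others for Cbx3. Among the enzymes, the SUV39 genes held 30.2% and 33.9% of the FPKM in non-injection, 30.5% and 53.0% under PIASy-Mut and 55.9% and 58.9% under PIASy-WT. The SETDB genes held 65.8% and 62.3%, 62.8% and 44%, and 41.2% and 39.6% in that order, and the EHMT genes at most 6.64% in any library.

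**Figure D4:**
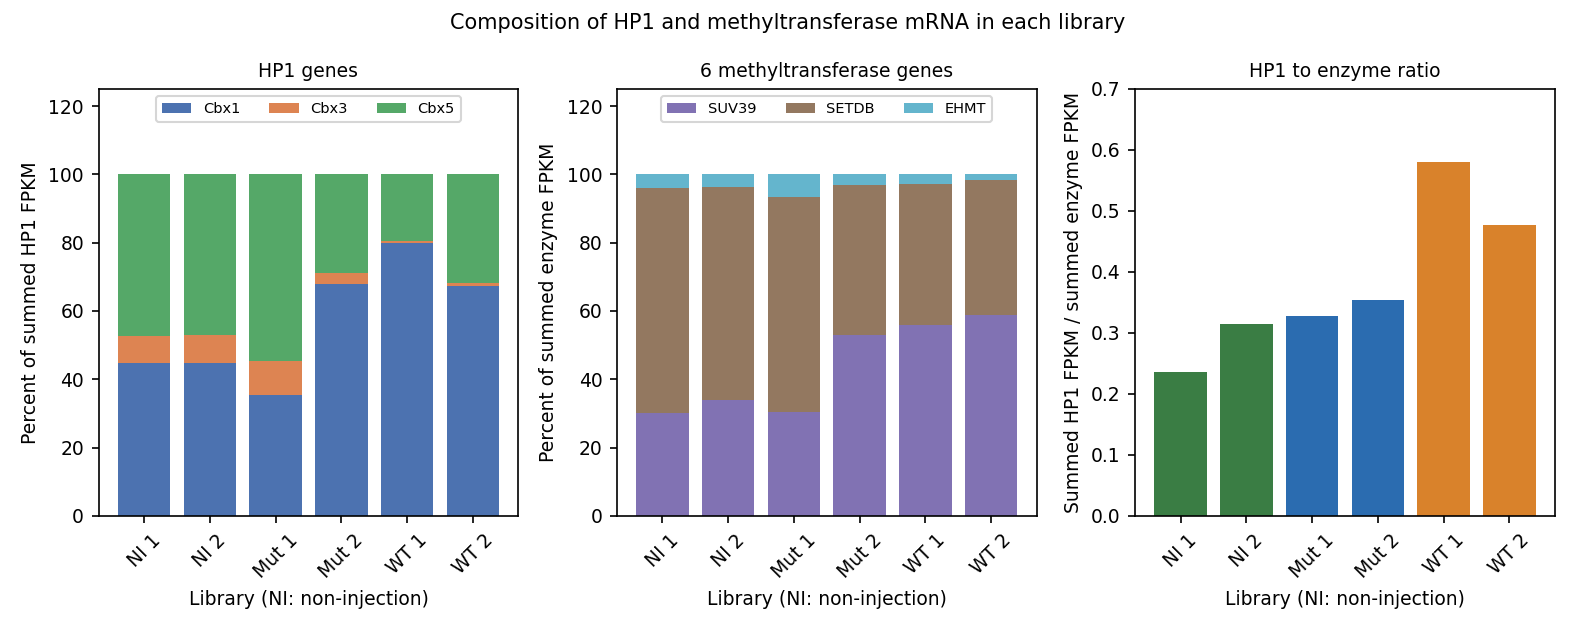
Percent of the summed HP1 FPKM held by each HP1 gene (left), percent of the summed enzyme FPKM held by each enzyme pair (middle) and the ratio of the HP1 sum to the enzyme sum (right) in the 6 libraries. The ratio is 0.580 and 0.478 in PIASy-WT and at most 0.353 in the other 4, and the composition of PIASy-Mut 2 is close to that of PIASy-WT.

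The protein-coding genes with the pattern most like that of a member were found by Pearson correlation of log2(FPKM + 1) over the 6 libraries, as a description. For Suv39h1 they were Prc1, Imp3 and Platr25 (r from 0.9993 to 0.9995), and 1313 of the 11268 genes compared had an r above 0.95. For Trim28 they were Nosip, Lsm12 and Timm17a (r from 0.9956 to 0.9971), with 742 genes above 0.95. Prc1, a microtubule bundling protein of the mitotic midzone, reached FPKM values of 64.3 and 59.1 for non-injection, 103 and 49.0 for PIASy-Mut and 12.7 and 11.2 for PIASy-WT. The other 3 members compared in this way had fewer such genes. Setdb1 was nearest to Foxe1, Parn and Cd177 with 21 genes above 0.95, Ehmt2 to Yipf3, Gclc and Impa2 with 43, and Cbx5 to Fadd, Osbpl2 and Fntb with 14. All points share the 6 libraries and their depth.

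Beyond the 10 genes, 33 other genes of H3K9 methylation were listed by role, and 28 of them were tested. Against non-injection 2 were called lower in PIASy-WT and 0 higher, and against PIASy-Mut 4 were called lower and 0 higher, where 5.76% and 6.01% of all genes were called lower and 1.03% and 0.82% higher. An unadjusted P under 0.05 was found for 6 lower and 0 higher, and for 7 lower and 1 higher, where 28.2% and 27.7% of all genes had one. Voom called 6 lower and 0 higher of 26 genes in each of these comparisons, where 19% and 18.8% of all genes were called lower and 8.51% and 5.94% higher. The median log2 fold change was -0.42 and -0.37, against 0.01 and -0.03 over all genes tested. In PIASy-Mut against non-injection 0 were called by limma or voom and 0 had an unadjusted P under 0.05.

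Atf7ip2, a relative of the SETDB1 cofactor ATF7IP, was 1 of 4 cofactors tested that was called lower in PIASy-WT. Its FPKM was 57.2 and 40.5 without injection, 68.8 and 31.0 with PIASy-Mut, and 11.2 and 8.91 with PIASy-WT. PIASy-WT minus non-injection was -2.16 on the log2 scale of limma (SE 0.43, adjusted P=0.0427), and PIASy-WT minus PIASy-Mut was -2.11 (adjusted P=0.0450). Among 10 H3K9 demethylase genes tested, Kdm4c, which removes the trimethyl mark, was lower in PIASy-WT. Its FPKM was 19.1 and 19.4 for non-injection, 28.9 and 16.9 for PIASy-Mut and 1.81 and 3.74 for PIASy-WT, with a log2 fold change of -2.47 (SE 0.40, adjusted P=0.0325 by limma) and -2.67 (adjusted P=0.0274 by limma). The demethylase gene with the highest mean over all 6 libraries, Kdm7a, had log2 fold changes of 0.26 and 0.37 (adjusted P=0.523 and 0.391 by limma).

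Of the 4 genes listed for MORC2A and the HUSH complex, which spreads H3K9me3 together with SETDB1, Pphln1, a HUSH subunit gene, was lower in PIASy-WT than in PIASy-Mut with a log2 fold change of -1.40 (adjusted P=0.0490 by limma), and against non-injection the value was -1.07 (adjusted P=0.0826 by limma). Its FPKM was 42.6 and 44.8 without injection, 62.7 and 48.2 with PIASy-Mut, and 16.5 and 24.9 with PIASy-WT. Of 6 genes of HP1-binding proteins tested, Lbr, which encodes the lamin B receptor of the inner nuclear membrane, was lower in PIASy-WT than in PIASy-Mut with a log2 fold change of -1.45 (SE 0.26, adjusted P=0.0343 by limma). Its FPKM was 26.8 and 24.3 for non-injection, 35.8 and 29.2 for PIASy-Mut and 11.4 and 11.0 for PIASy-WT, and the value against non-injection was -1.12 (adjusted P=0.0559 by limma). Atrx, the HP1-binding gene with the highest mean over all 6 libraries though not in PIASy-Mut, where Lbr was higher, had -0.26 and 0.06 (adjusted P=0.604 and 0.930 by limma). Among PRDM enzymes and the TRIM relatives of Trim28, 0 of 2 and 0 of 2 genes tested were called by limma or voom, with 0 at an unadjusted P under 0.05. The highest of each by the mean of all 6 libraries were Prdm2, with log2 fold changes of -0.52 and -0.87 (adjusted P=0.441 and 0.222 by limma), and Trim24, with 0.38 and 0.26 (adjusted P=0.430 and 0.589 by limma). Trim33 had the higher mean in the non-injection and PIASy-Mut groups, and its values were -1.04 and -0.94 (adjusted P=0.217 and 0.263 by limma).

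**Figure D5:**
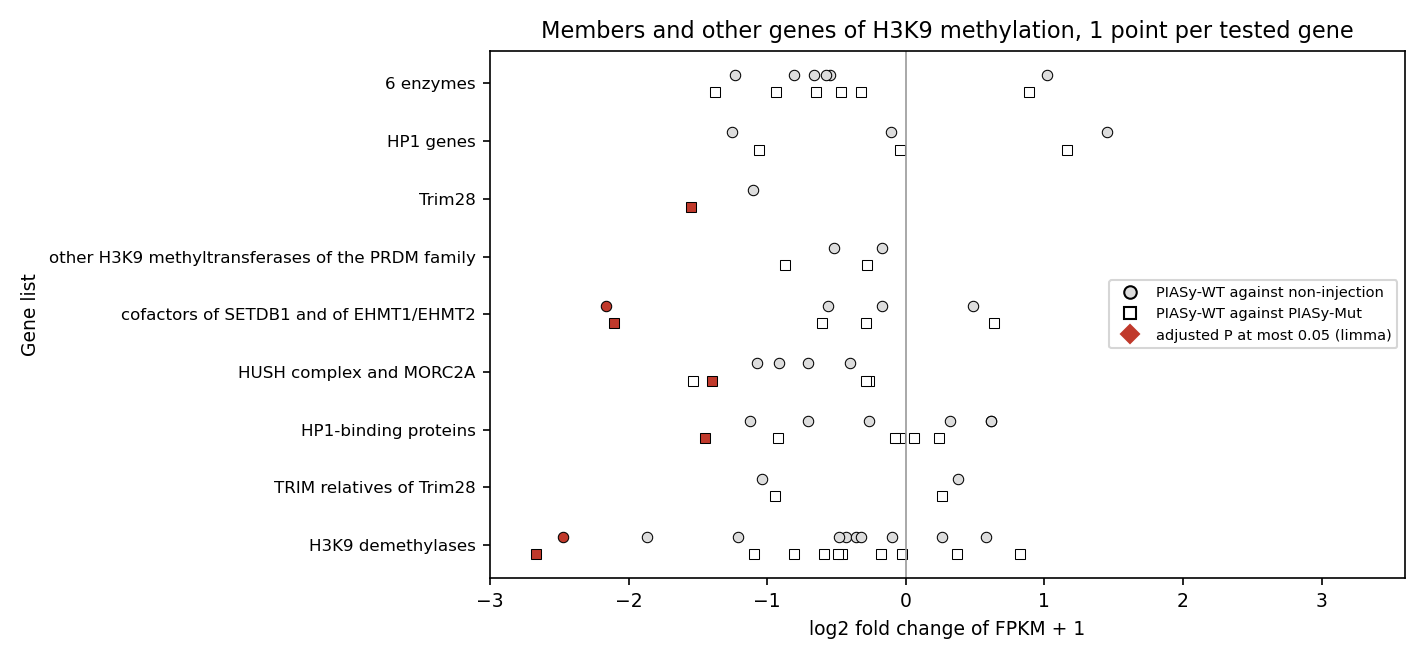
Log2 fold change of FPKM + 1 in PIASy-WT against non-injection (circles) and against PIASy-Mut (squares) for the 10 genes and for the other tested genes of H3K9 methylation by role, 1 point per gene. Red points pass an adjusted P of 0.05, and all of them lie below 0.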

How the data were processed

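The 6 libraries were assigned to groups and replicate numbers by their titles. The authors trimmed paired reads of 50 and 25 bases (Trim Galore), aligned them to mm10 (STAR), and ran featureCounts on those that mapped uniquely. They deposited FPKM values, and 0 rows of the table were spike-in sequences. Versions and the strand setting are not given in the sources used here. FPKM times gene length, divided by its smallest value above 0 in the library (taken as 1 fragment), was whole, within 0.001, for 100% of values above 0, which gave the fragments and depths used here. FPKM values are shares of each library, not amounts per embryo. The authors used DESeq2 on counts, which was not run here.

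Here limma 3.58.1 in R 4.3.3 (lmFit, and eBayes with a trend) was run on log2(FPKM + 1) of all 6 libraries without a block, with 3 residual and 3.12 prior degrees of freedom, and checked on simulated libraries. In these, only genes with more fragments than Cbx3 or Ehmt2 were changed, and by large folds. Smaller changes and genes with few fragments were not covered by this check. Adjustment (Benjamini-Hochberg) ran over all 16100 genes. The study counts replicates as biological, but how the pools were collected is not given in the sources used here, so P-values measure the spread between these pools. Python 3.11.15 and matplotlib 3.10.9 were used for the rest. Sequence sharing was counted in GENCODE M21 transcripts. The 10 genes, the other lists and the alternatives were chosen with earlier results of these data known. The genes named are the 10 members, genes that overlap them, the nearest patterns for 1 member of each role, and, in each other list of H3K9 genes, the called genes and the gene with the highest mean. Marker genes and Trim33 were named after their values were seen.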

Additional observations from a re-analysis of the deposited data

How the results depend on the processing

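Under 17 alternatives, 445 values of single genes kept their direction and their side of the threshold, 24 passed it, 13 lost it and 17 changed sign. In PIASy-WT against non-injection the number of the 10 genes called was 0, and it was 1 among genes reaching an FPKM of 5 in 2 libraries (7 of the 10 tested), 5 with only the groups compared and 4 with voom. In PIASy-WT against PIASy-Mut it was 1 (Trim28), and it was 0 with a pseudocount of 5, without a filter on low values, with quantile normalization, with median-of-ratios size factors, with eBayes without a trend, with robust eBayes and with only the groups compared, 2 with the FPKM of 5 and 3 with voom. Leaving out each library gave from 0 to 4 genes in both comparisons, with 4 reached only without a PIASy-Mut library. Without either non-injection library, 0 of all genes were called in these comparisons by limma, and 0 or 1 without either PIASy-WT library.

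The replicate numbers did not pair the libraries (correlations of deviations 0.00368, 0.0851 and 0.0637). With the replicate block, 0 of the 10 genes were called in each comparison, and Trim28 in PIASy-WT against PIASy-Mut was at -1.55 (adjusted P=0.0641 by limma).

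Over all genes the calls in PIASy-WT against non-injection were 928 lower and 166 higher, and they were 154 and 16 without a filter, 1441 and 332 with the FPKM of 5, 256 and 59 without a trend, 1998 and 1047 with only the groups compared and 1941 and 867 with voom. Against PIASy-Mut they were 968 and 132, and 243 and 11, 1483 and 207, 464 and 90, 0 and 0, and 1913 and 605 in the same order, and 490 and 124 with quantile normalization. Quantile normalization moved the median of all genes to 0.12 and 0.11 and the share of lower calls from 84.8% to 75% and from 88% to 79.8%.

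Sign changes in PIASy-WT against non-injection were those of Cbx5 (0.16 with quantile normalization, -0.35 to 0.14 when leaving out each library). Against PIASy-Mut, quantile normalization gave 0.042 for Setdb2 and 0.29 for Cbx5, and median-of-ratios size factors 0.063 for Cbx5. Leaving out each library gave -0.70 to 0.051 for Setdb2, -1.19 to 0.26 for Ehmt1 and -0.51 to 0.43 for Cbx5. In PIASy-Mut against non-injection it gave -0.17 to 0.46 for Suv39h1, -0.37 to 0.63 for Suv39h2, -0.18 to 0.39 for Setdb1, -0.92 to 0.53 for Ehmt1, -0.10 to 0.68 for Cbx1, -0.78 to 0.39 for Cbx3 and -0.53 to 0.41 for Cbx5. The HP1 mean minus the enzyme mean was -0.19 and -0.16 in PIASy-Mut with pseudocounts of 0.1 and 5, and 0.25 and 0.25 in PIASy-WT, where quantile normalization gave 0.35. The causes were not tested.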
